A study of Mus musculus with 34 samples.

Results

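The genes described here are 10 nuclear receptors outside the PPAR group: Vdr, Rara, Rarb, Rarg, Rxra, Rxrb, Thra, Nr1h2, Nr1h3 and Nr2f2. They are a list of names, and the set was chosen by the RNA of Vdr, which was much higher 4 hours after adipogenic induction than before it, so RNA differences between 4 hours and day 0 are given as descriptions without a test. Each symbol matched an RNA row, which gives 10 of 17515 rows, and all 10 passed the filter on low values that left 13534 transcripts for testing. In the chromatin data, 11 of 10702 H3K4me3 peaks carried the name of 8 of these genes, 141 of 87525 KDM5A peaks the names of all 10, and 29 of 14827 KDM5C peaks the names of 7.

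Nuclear receptors are transcription factors that bind DNA through a zinc finger domain and, in many cases, are switched by a small lipid-soluble ligand. RXR proteins (Rxra, Rxrb) are the shared dimer partners of the vitamin D receptor (Vdr), the retinoic acid receptors (Rara, Rarb, Rarg), the thyroid hormone receptor (Thra) and the liver X receptors (Nr1h3 and Nr1h2, which sense oxysterols). Nr2f2 encodes COUP-TFII, an orphan receptor that mostly represses transcription. In 3T3-L1 cells, PPARG acts on adipocyte genes as a dimer with RXRA, while activated vitamin D receptor and retinoic acid early in the programme are known to block differentiation.

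The series holds 34 samples of 3T3-L1, a mouse preadipocyte line. RNA and H3K4me3 (a mark of promoters) were measured in cells carrying short hairpins labelled shKdm5ABC, aimed at the H3K4 demethylases Kdm5a, Kdm5b and Kdm5c, and in control cells carrying shLuc. Each arm was sampled on day 0 (confluent and uninduced), 4 hours after adding dexamethasone, insulin, IBMX and serum, and on day 2 of induction, with 2 samples per group in each assay. Both arms had been transduced with lentivirus before confluence, 4 days ahead of induction, so the shLuc cells are not unmanipulated cells, and the labels describe no clone. KDM5A binding was mapped at the same 3 times and KDM5C binding on day 2, with 2 samples per group, in cells for which no transduction is stated, beside 1 input library. The labels number replicates as experiments but do not say whether these were separate cultures. Each p therefore rests only on the spread between these samples, which the fits share over features.

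In shKdm5ABC cells the RNA of Kdm5c was left at 38 to 39.7% of shLuc over the 3 times, that of Kdm5a at 50.7 to 58.1% and that of Kdm5b at 60.2 to 63.9%. The RNA columns carried preadipocyte markers (7 of 7 reached a log2 level of 3) and adipocyte markers (7 of 7). The same level was reached by 2 of 6 macrophage markers (Cd68 and Lyz2, with Ptprc between -5.57 and -5.34), by 0 of 4 endothelial markers with a row, by 2 of 3 muscle markers and by 1 of 4 epithelial markers. Their part in the results below was not tested, and in bulk RNA fewer cells with a transcript cannot be told apart from less of it per cell. The RNA table holds log2 values without counts, so RNA depth is unknown. ChIP libraries held 8.37 to 13.59 x10⁶ tags for H3K4me3, 3.87 to 17.6 for KDM5A and 2.95 to 8.13 for KDM5C.

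Promoter sequences from RefSeq (build GRCm38.p6) were found for 9 of the 10 genes. The 250 bases before the annotated start are printed for the 3 receptors with the widest spans of RNA group means (Vdr, Nr1h3 and Rarg) and for Nr2f2, whose day 2 difference between the arms came next to that of Vdr. All 4 lie on the minus strand and are written 5′ to 3′. Capitals mark the nuclear receptor half-site AGGTCA on either strand.
Vdr, chr15:97908297-97908546: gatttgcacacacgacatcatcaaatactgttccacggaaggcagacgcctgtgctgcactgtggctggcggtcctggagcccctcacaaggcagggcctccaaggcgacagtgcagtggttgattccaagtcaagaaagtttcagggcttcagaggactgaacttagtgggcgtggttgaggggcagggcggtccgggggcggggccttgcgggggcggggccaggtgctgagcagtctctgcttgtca
Nr1h3, chr2:91195117-91195366: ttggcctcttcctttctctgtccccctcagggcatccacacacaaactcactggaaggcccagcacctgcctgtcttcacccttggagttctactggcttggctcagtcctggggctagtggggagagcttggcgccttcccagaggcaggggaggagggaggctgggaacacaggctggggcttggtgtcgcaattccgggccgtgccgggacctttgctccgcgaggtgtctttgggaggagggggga
Rarg, chr15:102257523-102257772: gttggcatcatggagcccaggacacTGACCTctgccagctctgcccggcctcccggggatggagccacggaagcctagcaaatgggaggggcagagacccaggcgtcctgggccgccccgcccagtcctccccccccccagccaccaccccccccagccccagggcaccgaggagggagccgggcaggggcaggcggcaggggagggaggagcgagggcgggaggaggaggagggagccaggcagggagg
Nr2f2, chr7:70366747-70366996: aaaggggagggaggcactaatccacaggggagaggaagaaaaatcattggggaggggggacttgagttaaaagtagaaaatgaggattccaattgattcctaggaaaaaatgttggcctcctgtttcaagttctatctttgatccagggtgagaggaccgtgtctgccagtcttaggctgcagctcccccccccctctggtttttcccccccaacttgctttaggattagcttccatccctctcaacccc
Over windows of 300 bases, which add 50 bases after the start, Vdr had 61.3% GC and 15 CpG, Nr1h3 63% and 8, Rarg 70% and 12, and Nr2f2 49.7% and 2. These values belong to the printed starts and not to every start of a gene. The second window of Nr1h3 had 62.7% GC and 10 CpG, and that of Rarg 51.7% and 10. The medians of all 32851 windows in the table were 52.7% GC and 7 CpG. At the other end of the set stood Rxra, whose first window had 83% GC and 55 CpG. The half-site was found in the windows of 3 of the 9 genes (Rara, Rarg and Rxra), and in 16.3% of all windows. In these motif counts a gene counts if any of its windows matched, and some genes have several (Rara has 4). The shares are per single window, so the counts of genes cannot be set against them. The Rarg match, capitalised above, starts 225 bases before the start site. A C/EBP motif (TTGCNNAA) was found for Rarb and for the second window of Rarg, and in 10.8% of all windows. Neither a cAMP response element (TGACGTCA, 1.79% of all windows) nor a glucocorticoid response element (0.475%) was found for any of the 9. All 4 motifs were searched on both strands, and a match or its absence says nothing of binding.

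On day 0 the 10 receptors spanned a wide range of RNA levels, given here as log2 normalised tags per kb of transcript, a scale on which genes can be compared. In shKdm5ABC cells Rxra (9.29) and Thra (9.12) were highest, followed by Rarg (8.77), Nr1h2 (8.33), Rara (8.17), Nr2f2 (7.89), Rxrb (7.79), Vdr (7.12), Nr1h3 (5.22) and Rarb (1.28). In shLuc cells the order was Thra (9.12), Rxra (9.02), Rarg (8.84), Nr1h2 (8.51), Rara (8.12), Rxrb (7.85), Nr2f2 (7.69), Vdr (7), Nr1h3 (4.95) and Rarb (1.13). The libraries of Rxra and Thra overlapped in both arms, as did those of Nr2f2 with Rxrb and of Rxrb or Nr2f2 with Rara. Vdr, Nr1h3 and Rarb were each apart from their neighbours in that order. Over all 12 libraries Rarb averaged 0.77, a level below which only 1.8% of tested transcripts lay, while Rxra averaged 9.69, above 93.6% of them.

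At 4 hours Vdr went to the top of this order in both arms. It measured 12.44 and 12.33 in the 2 shKdm5ABC libraries at 4 hours, against 7.05 and 7.19 on day 0. In shLuc cells it measured 12.72 and 12.45 at 4 hours, against 7.17 and 6.84 on day 0. The difference was 5.27 on the log2 scale in shKdm5ABC cells (38.5-fold) and 5.58 in shLuc cells (47.8-fold), and no library of one time overlapped those of the other. In unlogged values this was 5560 and 5160 tags per kb in shKdm5ABC cells and 6740 and 5580 in shLuc cells at 4 hours. The next receptor at that time, Rxra, averaged 9.28 in shKdm5ABC and 9.3 in shLuc cells on the log2 scale. By day 2 Vdr was 4.56 lower than at 4 hours in shKdm5ABC cells and 5.59 lower in shLuc cells. These differences belong to the contrast that chose the set, so they are descriptions without a test.

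**Figure D1:**
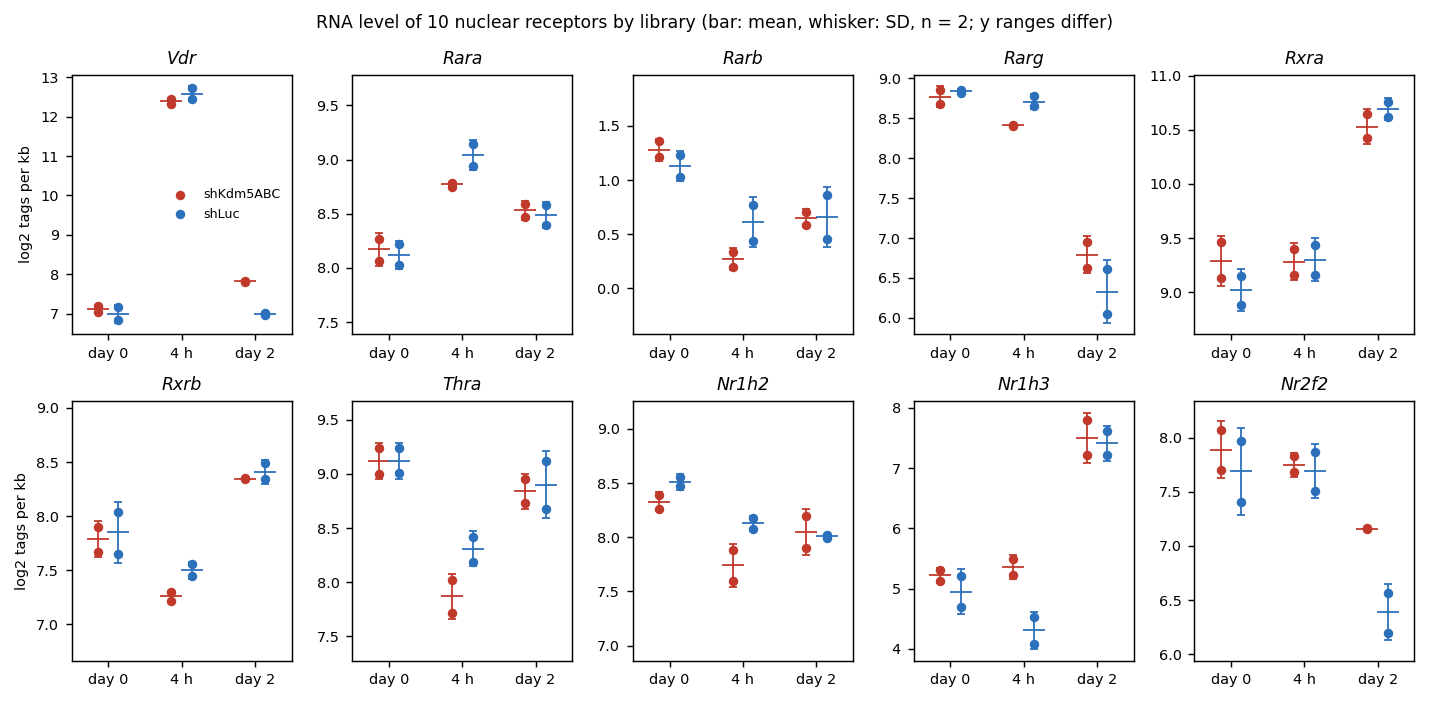
RNA level of each receptor in every library, in log2 normalised tags per kb, on day 0, at 4 hours and on day 2. Points are libraries, bars group means and whiskers SD (n = 2), with shKdm5ABC in red and shLuc in blue. Vdr stands above 12 at 4 hours in all 4 libraries, while Nr1h3 and Rxra are highest and Rarg lowest on day 2.

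The other 9 receptors differed far less between 4 hours and day 0, and these values too are descriptions. Rara, a retinoic acid receptor, was 0.6 higher in shKdm5ABC cells and 0.92 higher in shLuc cells. Thra was lower, with a difference of -1.26 in shKdm5ABC cells and -0.82 in shLuc cells, and day 2 was above 4 hours by 0.97 in shKdm5ABC and 0.59 in shLuc cells. Nr1h2 (-0.59 and -0.39), Rxrb (-0.53 and -0.34) and Rarg (-0.36 and -0.12) were lower in shKdm5ABC and in shLuc cells without overlap of libraries. Rarb differed by -1.02 in shKdm5ABC and -0.52 in shLuc cells, at levels between 0.2 and 1.36. Rxra (-0.01), Nr2f2 (-0.13) and Nr1h3 (0.14) overlapped between the times in shKdm5ABC cells. In shLuc cells Nr2f2 differed by less than 0.01 and overlapped, while Rxra was 0.29 higher and Nr1h3 0.64 lower.

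By day 2 the dimer partner Rxra and the oxysterol sensor Nr1h3 had risen and the retinoic acid receptor Rarg and the orphan receptor Nr2f2 had fallen, in both arms. Against day 0, limma (Benjamini-Hochberg adjusted p under 0.05, two-sided, from 1 fit over all 12 libraries) called 8 of the 10 receptors in shKdm5ABC cells, where 45.2% of all tested transcripts were called. Of the 8, 5 rose and 3 fell, beside 22% and 23.1% of all. It called 7 of 10 in shLuc cells, where the share was 55%, and 4 of the 7 rose and 3 fell, beside 27.1% and 27.8% of all. Differences given below with an SE are log2 values from this fit.

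Nr1h3 measured 7.21 and 7.8 on day 2 in shKdm5ABC cells, against 5.13 and 5.31 on day 0, and 7.21 and 7.61 on day 2 in shLuc cells, against 4.69 and 5.21. It rose by 2.28 (SE 0.27, adjusted p = 9.31e-05) in shKdm5ABC cells and by 2.46 (SE 0.27, adjusted p = 3.04e-05) in shLuc cells. Rxra measured 10.42 and 10.65 on day 2 in shKdm5ABC cells, against 9.13 and 9.46 on day 0, and 10.62 and 10.76 in shLuc cells, against 8.88 and 9.15. It rose by 1.24 (SE 0.16, adjusted p = 2.04e-04) and 1.67 (SE 0.16, adjusted p = 1.61e-05) in shKdm5ABC and in shLuc cells. All day 2 libraries of both genes lay above all day 0 libraries. The second RXR gene, Rxrb, rose by 0.56 in each arm (SE 0.15, adjusted p = 0.0104 in shKdm5ABC and 0.00756 in shLuc cells). Rara rose by 0.36 in shKdm5ABC and 0.37 in shLuc cells (SE 0.13, adjusted p = 0.0412 and 0.0316).

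Rarg measured 6.95 and 6.62 on day 2 in shKdm5ABC cells, against 8.86 and 8.68 on day 0, and 6.61 and 6.05 on day 2 in shLuc cells, against 8.82 and 8.86. It fell by 1.99 (SE 0.18, adjusted p = 2.08e-05) in shKdm5ABC and by 2.51 (SE 0.18, adjusted p = 2.40e-06) in shLuc cells, so that Rara and Rarg moved in opposite directions. Nr2f2 measured 7.17 and 7.16 on day 2 in shKdm5ABC cells, against 7.7 and 8.07 on day 0, and 6.2 and 6.57 in shLuc cells, against 7.41 and 7.97. It fell by 0.72 (SE 0.22, adjusted p = 0.0199) in shKdm5ABC and by 1.3 (SE 0.22, adjusted p = 5.31e-04) in shLuc cells. Day 2 libraries of both genes lay below all day 0 libraries of their arm. The 2 liver X receptors differed: beside the rise of Nr1h3, Nr1h2 fell by 0.51 in shLuc cells (SE 0.14, adjusted p = 0.0097), with a difference of -0.28 in shKdm5ABC cells (SE 0.14, adjusted p = 0.127, or 0.0193 with the replicate block). Rarb fell by 0.64 in shKdm5ABC cells (SE 0.23, adjusted p = 0.0474), from a level at the bottom of the table. Thra was called in neither arm, with differences of -0.28 in shKdm5ABC (adjusted p = 0.231, or 0.00803 with the replicate block) and -0.23 in shLuc cells (0.319, or 0.0223), each with an SE of 0.18.

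Vdr had not returned to its day 0 level in knockdown cells by day 2. It measured 7.81 and 7.84 on day 2 in shKdm5ABC cells, against 7.05 and 7.19 on day 0, a rise of 0.71 (SE 0.13, adjusted p = 0.00178). In shLuc cells it measured 6.97 and 7.01 on day 2, against 7.17 and 6.84 on day 0, a difference of -0.01 (SE 0.13, adjusted p = 0.946). By day 2 the order was led in both arms by Rxra, at 10.53 in shKdm5ABC and 10.69 in shLuc cells. Vdr stood above Nr1h3 in shKdm5ABC cells (7.83 and 7.5) and below it in shLuc cells (6.99 and 7.41).

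Some day 2 calls ended when 1 library was left out. In shKdm5ABC cells that of Rara ended without day 0 replicate 1 (adjusted p = 0.24), day 2 replicate 1 (0.173) or day 2 replicate 2 (0.073), and that of Rxrb without day 0 replicate 2 (0.0819). That of Nr2f2 ended without day 0 replicate 2 (0.139), day 2 replicate 1 (0.0655) or day 2 replicate 2 (0.0756), and that of Rarb without any one of the 4 libraries (0.0948 to 0.178). In shLuc cells the Rara call ended without replicate 1 of day 0 (0.188) or day 2 (0.176), the Rxrb call without day 0 replicate 2 (0.0762) or day 2 replicate 1 (0.0543), and the Nr1h2 call without day 0 replicate 1 (0.0599). The calls for Nr1h3, Rxra, Rarg and, in shKdm5ABC cells, Vdr held each time.

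The knockdown raised Vdr on day 2, when its RNA was 225 and 230 tags per kb in shKdm5ABC cells, against 126 and 129 in shLuc cells. The difference was 0.84 (SE 0.13, 1.79-fold, adjusted p = 0.00685) and was 0.84 in each of the 2 experiments. In the fit without the replicate block, Vdr was the only receptor of 10 called at any time. That fit called 9% of all tested transcripts on day 2 (5.66% higher and 3.34% lower), and calls with the block follow below. The call ended without shKdm5ABC day 2 replicate 1 (adjusted p = 0.055) and without shLuc day 2 replicate 2 (adjusted p = 0.0506), with a difference of 0.85 in each case, and in a fit of only the compared groups (adjusted p = 0.0812). On day 0, limma called 0 of 10 receptors and 1.51% of all transcripts, and 0 of 10 had an unadjusted p under 0.05. At 4 hours it called 0 of 10 and 1.44% of all transcripts, with 3 receptors at an unadjusted p under 0.05. The Vdr difference was -0.2 (SE 0.13, adjusted p = 0.636) at 4 hours and 0.12 (SE 0.13, adjusted p = 0.844) on day 0.

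Several other receptors missed the threshold in the fit without the replicate block and passed with it. In RNA the block pairs the libraries of an experiment. That fit called 3 receptors on day 2, where it called 28.1% of all transcripts. Nr2f2 measured 7.17 and 7.16 in shKdm5ABC cells on day 2, against 6.2 and 6.57 in shLuc cells, a difference of 0.77 (SE 0.22, adjusted p = 0.0519, or 0.0016 with the block and 0.0486 with a stricter filter on low values). Rarg measured 6.95 and 6.62, against 6.61 and 6.05 in shLuc cells, a difference of 0.45 (SE 0.18, adjusted p = 0.142, or 0.039 with the block and 0.0473 without shLuc day 2 replicate 1, where the difference was 0.73). The groups of Nr2f2 did not overlap and those of Rarg were 0.01 apart, and both genes stood nearer to their day 0 levels in shKdm5ABC cells. Marker genes differed between the arms at the same time: on day 2, 6 of 7 preadipocyte markers were higher and 6 of 7 adipocyte markers lower in shKdm5ABC cells. Summed preadipocyte markers held 9511 and 6756 tags per kb in shKdm5ABC and 6176 and 4085 in shLuc cells, and summed adipocyte markers 12837 and 24086 in shKdm5ABC and 26447 and 33192 in shLuc cells. On day 0 the markers went the other way, with 6 of 7 preadipocyte markers lower and 7 of 7 adipocyte markers higher in shKdm5ABC cells. Summed adipocyte markers then held 1284 and 2989 tags per kb in shKdm5ABC and 898 and 1292 in shLuc cells. At 4 hours 5 of 7 preadipocyte markers were lower and 5 of 7 adipocyte markers higher in shKdm5ABC cells. The part of these markers in the day 2 differences of Vdr, Nr2f2 and Rarg was not tested.

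At 4 hours the block fit called 3 receptors, where it called 9.68% of all transcripts. Nr1h3 measured 5.5 and 5.22 in shKdm5ABC cells, against 4.53 and 4.09 in shLuc cells, which is 45.3 and 37.2 tags per kb in shKdm5ABC cells, against 23.1 and 17 in shLuc cells. The difference was 1.05 (SE 0.27, adjusted p = 0.104, or 0.0218 with the block), and was 0.97 and 1.13 in the 2 experiments. Thra differed by -0.44 (SE 0.18, adjusted p = 0.324, or 0.00668 with the block) and Nr1h2 by -0.39 (SE 0.14, adjusted p = 0.241, or 0.0216 with the block). On day 0 the block fit called 1 receptor, Rxra, with a difference of 0.28 (SE 0.16, adjusted p = 0.569, or 0.0296 with the block), where it called 9.44% of all transcripts. Rara, Rarb and Rxrb passed in neither fit at any time, with differences between -0.34 and 0.16.

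**Figure D2:**
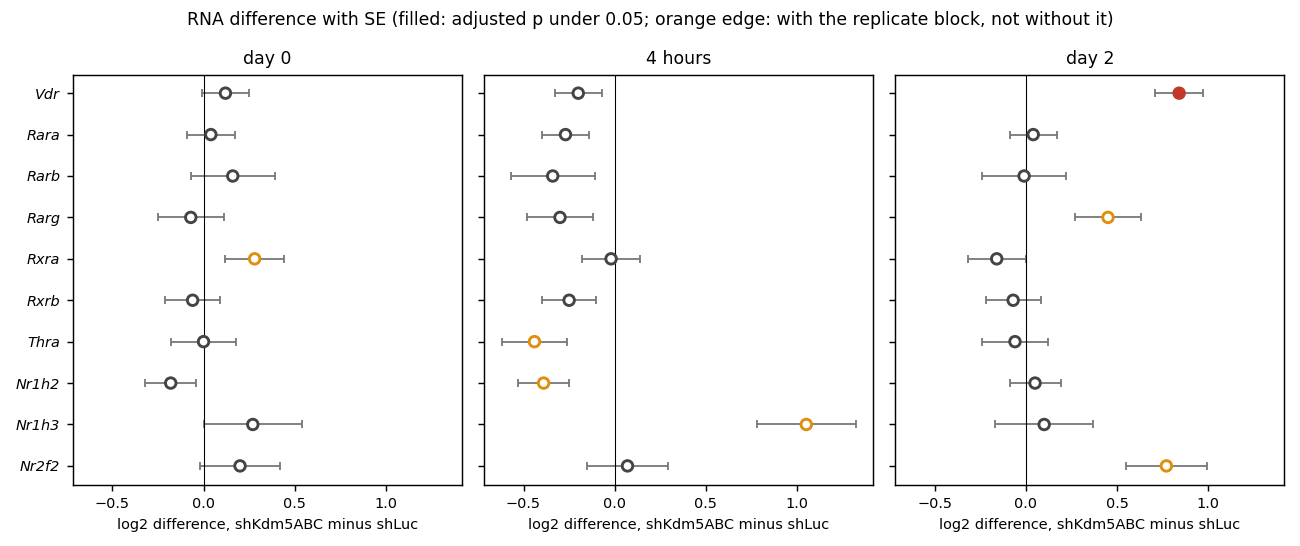
Log2 difference in RNA, shKdm5ABC minus shLuc, for each receptor on day 0, at 4 hours and on day 2, with SE from the limma fit (n = 2 libraries per group). The filled point, Vdr on day 2 at 0.84, is the receptor with an adjusted p under 0.05, and orange edges mark those that pass with the replicate block and not in the fit without it.

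Whether the knockdown effect differed between day 2 and day 0 was tested as an interaction. Limma called 0 of 10 receptors and 0.31% of all transcripts, with 1 receptor passing before adjustment. The block fit called 2 (7.67% of all). For Vdr the effect was 0.72 larger on day 2 (SE 0.19, adjusted p = 0.137, or 0.0206 with the block). For Rxra it was -0.43 (SE 0.23, adjusted p = 0.514, or 0.0238 with the block). Over the 10 receptors the median knockdown difference was 0.08 on day 0, -0.26 at 4 hours and 0.04 on day 2, beside 0.01, 0 and 0 for all transcripts.

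The transcripts most like Vdr were sought by Pearson correlation of log2 levels over the 12 libraries among the 2478 transcripts whose group means spanned at least 2. They were Ramp3, a partner protein of the calcitonin receptor family (r = 0.9955), Crispld2, a secreted protein (0.9955), Ugdh, the enzyme that makes UDP-glucuronate (0.9954), Csrnp1, a nuclear factor (0.9934), and Gprc5a, an orphan G protein-coupled receptor (0.9908). All 12 points share 3 times and 2 arms, so the 4 libraries at 4 hours set these values. Ugdh reached 14.57 in shKdm5ABC and 14.21 in shLuc cells at 4 hours, and 9.86 and 9.82 on day 0. Those most like Nr1h3, the receptor with the next widest span of group means (3.19), were Kcnh4, a potassium channel (0.9846), Sfxn1, a mitochondrial serine carrier (0.9784), Mpc1, a subunit of the mitochondrial pyruvate carrier (0.9741), Prxl2a (0.9737) and Nav3 (0.9731). Mpc1 stood at 8.39 in shKdm5ABC and 8.58 in shLuc cells on day 2, and at 6.67 and 6.6 on day 0.

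Some receptors share sequence with a neighbour. The library kit named in the labels does not mark strand, so reads of Thra and of Nr1d1, the circadian repressor whose gene overlaps it, cannot be told apart where the 2 genes overlap. Nr1d1 measured 5.72 and 5.9 in shKdm5ABC and 6.03 and 5.81 in shLuc cells at 4 hours, and between 7.03 and 7.24 on day 0. Acp2 overlaps Nr1h3 at a mean level of 7.67 over 12 libraries, above the 5.79 of Nr1h3 itself, and the noncoding B130024G19Rik (4.26) overlaps Nr2f2. The part of these neighbours in the values above was not tested.

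Around the receptors, genes of 7 lists (other nuclear receptors, coregulators, ligand supply, and targets of 4 receptor classes) were counted in the same fits. Of 38 other nuclear receptors 18 were tested, and on day 2 the knockdown raised 1 and lowered 0 (2 and 2 with the block), with a median difference of 0.13, beside 0 for all transcripts. The one raised was Nr2f1 (COUP-TFI), the close relative of Nr2f2, at 6.64 and 6.71 in shKdm5ABC and 5.99 and 5.96 in shLuc cells (0.7, SE 0.16, adjusted p = 0.0287). Between day 0 and day 2, 4 rose and 2 fell in shKdm5ABC cells (4 and 5 with the block), and 4 rose and 4 fell in shLuc cells (6 and 7). Here and in the lists that follow, the shares of all tested transcripts between these days were 22% up and 23.1% down in shKdm5ABC cells. In shLuc cells they were 27.1% up and 27.8% down. No share between these days is given for the block, so the counts with the block between these days are not read as a result about the lists. For the knockdown the shares called were 1.51% on day 0, 1.44% at 4 hours and 9% on day 2 (5.66% higher and 3.34% lower). With the block they were 9.44%, 9.68% and 28.1%. The interaction share was 0.31%, or 7.67% with the block. No list was tested against these shares. Pparg rose by 1.64 (SE 0.32, adjusted p = 0.002) in shKdm5ABC and by 2.71 (SE 0.32, adjusted p = 5.15e-05) in shLuc cells. Esrra, an orphan receptor of mitochondrial genes, rose by 0.96 (SE 0.11) in shKdm5ABC and 1.29 (SE 0.11) in shLuc cells.

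All 28 coregulators were tested. On day 2 the knockdown raised 2 and lowered 0 (3 and 5 with the block), with a median of 0.02: Ncoa3, a histone acetylase coactivator (0.61, SE 0.13, adjusted p = 0.0187), and Ppargc1a, a coactivator of mitochondrial genes (1.4, SE 0.35, adjusted p = 0.0365). Between day 0 and day 2, 7 rose and 4 fell in shKdm5ABC cells (12 and 6 with the block), and 9 rose and 5 fell in shLuc cells (12 and 8). Without the block, these counts of 28 are near the shares of all transcripts. The corepressor Nrip1 rose by 1.62 in shKdm5ABC and 2.37 in shLuc cells (SE 0.28 each), and Ppargc1b rose by 3.27 (SE 0.34) in shLuc cells.

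The ligand list holds enzymes, carriers and binding proteins of retinoids, vitamin D, oxysterols and thyroid hormone, and 20 of its 37 genes were tested. On day 2 the knockdown raised 4 and lowered 1 (7 and 2 with the block), with a median of 0.28. Adh7, a retinol dehydrogenase, measured 7.78 and 7.49 in shKdm5ABC and 5.21 and 4.82 in shLuc cells (2.62, SE 0.23, adjusted p = 0.00112). Cyp7b1, an oxysterol hydroxylase, measured 5.31 and 4.58 in shKdm5ABC and 2.42 and 2.36 in shLuc cells (2.56, SE 0.34, adjusted p = 0.00297). Adh1, which also oxidises retinol, was raised on day 0 by 2.06 (SE 0.26, adjusted p = 0.00601), the single call of the list at that time (2 raised and 1 lowered with the block). At 4 hours 0 were called (3 raised and 1 lowered with the block, and a median of 0.36). Adh7 was also the single gene of the 7 lists with a called interaction, the knockdown effect being 2.27 larger on day 2 than on day 0 (SE 0.32, adjusted p = 0.0306). With the block, interactions were called higher for 5 and lower for 0 of the vitamin D receptor targets and higher for 2 and lower for 1 of the retinoic acid receptor targets, and for 1 or 2 genes in each other list. Between day 0 and day 2, 5 rose and 2 fell in shKdm5ABC cells (7 and 5 with the block), among them the thyroid hormone carrier Slc16a10 (2.85, SE 0.38), and 5 rose and 3 fell in shLuc cells (5 and 7), among them Rdh11, a retinal reductase (1.73, SE 0.15).

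Of 20 targets of retinoic acid receptors 15 were tested, Rarb among them. The knockdown raised 3 and lowered 1 on day 2 (5 and 2 with the block, median 0.36), 1 on day 0 (3 with the block) and 1 at 4 hours (2 with the block), and lowered 0 at the earlier times. Rarres2, which encodes the adipokine chemerin, was raised by 1.29 on day 0 (SE 0.21, adjusted p = 0.0158) and by 1.62 at 4 hours (SE 0.21, adjusted p = 0.00899). On day 2 the homeobox gene Meis2 was raised by 0.93 (SE 0.16, adjusted p = 0.00908). Between day 0 and day 2, 3 rose and 5 fell in shKdm5ABC cells (3 and 7 with the block) and 3 rose and 4 fell in shLuc cells (3 and 6).

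Of 20 liver X receptor targets 15 were tested, Nr1h3 among them. By day 2, 7 rose and 3 fell in shKdm5ABC cells (9 and 3 with the block, median 0.72), and 8 rose and 3 fell in shLuc cells (9 and 3, median 0.93), beside medians of 0 and -0.01 for all transcripts. The 2 with the smallest p went the other way. Pltp, a phospholipid transfer protein, fell by 4.29 in shKdm5ABC and 4.55 in shLuc cells (SE 0.24 each), and Mylip, which degrades the LDL receptor, by 1.73 and 2.1 (SE 0.13 each). The knockdown raised 3 and lowered 0 on day 2 (4 and 1 with the block, median 0.1), among them Apoe (1.27, SE 0.3, adjusted p = 0.0289) and Arl4c (1.42, SE 0.34, adjusted p = 0.0302). The apolipoprotein Apoc1 was raised by 1.46 on day 0 (SE 0.22, adjusted p = 0.0115) and by 1.29 at 4 hours (SE 0.22, adjusted p = 0.0246), the single call at each of these times (3 and 5 with the block).

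Of 19 targets of the vitamin D receptor 12 were tested, Vdr among them. The knockdown raised 3 and lowered 0 on day 2 (5 and 1 with the block, median 0.29), Vdr itself included. Spp1 (osteopontin) measured 7.81 and 7.32 in shKdm5ABC and 6.87 and 6.43 in shLuc cells (0.91, SE 0.18, adjusted p = 0.0157). Between day 0 and day 2 Spp1 fell by 4.1 in shKdm5ABC and 5.06 in shLuc cells (SE 0.18 each), and the sodium-calcium exchanger Slc8a1 by 3.18 and 4.72 (SE 0.37 each), in a list where 4 rose and 3 fell in shKdm5ABC (5 and 4 with the block) and 2 rose and 5 fell in shLuc cells. Of 15 thyroid hormone receptor targets 11 were tested, and 6 rose and 3 fell by day 2 in each arm (7 and 4 in shKdm5ABC and 7 and 3 in shLuc cells with the block), with medians of 1.05 in shKdm5ABC and 1.2 in shLuc cells. Thrsp, a lipogenic protein, rose by 2.45 and 2.56 (SE 0.29 each). The knockdown changed 0 of the 11 on day 2 in limma (1 raised and 2 lowered with the block).

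The H3K4me3 table needs a caution before its values are read. Its columns are headed KDM5_KD and Control with D0, 4h and D2, but their values do not follow those headings as the RNA does. The median promoter peak held 664 to 688 tags in the columns headed KDM5_KD_D0 and KDM5_KD_D2 and 675 and 685 in those headed Control_4h, against 555 to 580 in the columns headed KDM5_KD_4h, Control_D0 and Control_D2. The share of the scaled library total in these peaks was 78.8 to 83.2% in the first set and 65.6 to 68.1% in the second. The promoter of the adipocyte gene Cidec held 350 and 389 tags in columns headed KDM5_KD_4h and 451 and 258 in those headed KDM5_KD_D2, against 23.2 to 42 in every other column. Its RNA was highest on day 2 in both arms (11.2 in shKdm5ABC and 11.66 in shLuc cells) and low at 4 hours (4.01 and 4.12). Values are therefore given by heading, comparisons run as headed, and no effect of time or knockdown is read from them.

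The Vdr promoter peak (mm9 chr15:97734293-97739827, centred 1667 bp downstream of the start) varied most among the 11 peaks. It held 2498 and 2077 tags in columns headed KDM5_KD_D0, 549 and 612 in KDM5_KD_4h and 1397 and 1425 in KDM5_KD_D2. The columns headed Control_D0 held 466 and 503, those headed Control_4h 931 and 839, and those headed Control_D2 2881 and 2351. The highest column was 6.18 times the lowest, and each pair of replicates stood apart from the pairs next to it except those of KDM5_KD_D0 and Control_D2. Vdr RNA was highest at 4 hours in both arms. With the headings in doubt, the times of the mark are not compared with those of the RNA.

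Among the other peaks, that of Nr1h3 (chr2:91033111-91035814) varied 4.91-fold, with 234 and 220 tags in columns headed KDM5_KD_D0, 240 and 235 in KDM5_KD_4h and 369 and 313 in KDM5_KD_D2. It held 75.2 and 102 in Control_D0, 218 and 212 in Control_4h and 81.8 and 81.5 in Control_D2. Its mean was low, above 11.9% of all promoter peaks, whereas both Rara peaks, the gene-body side peak of Rarg, the Rxra peak and the larger Nr2f2 peak lay above 98.2 to 99.6% of them. Rarg had 2 peaks, at 1294 and 125 bp from its 2 starts, and both were lowest in the columns headed KDM5_KD_4h (1067 and 1415, and 400 and 461 tags). Rxra was highest in those headed KDM5_KD_D2 (2878 and 2677) and lowest in those headed Control_D2 (1190 and 1230). Thra ranged from 735 to 1576 tags, and Nr1h2 varied least, from 532 to 727. No H3K4me3 peak carried the name of Rarb or Rxrb. The KDM5A peak at the Rxrb start overlapped one named for H2-Ke6.

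**Figure D3:**
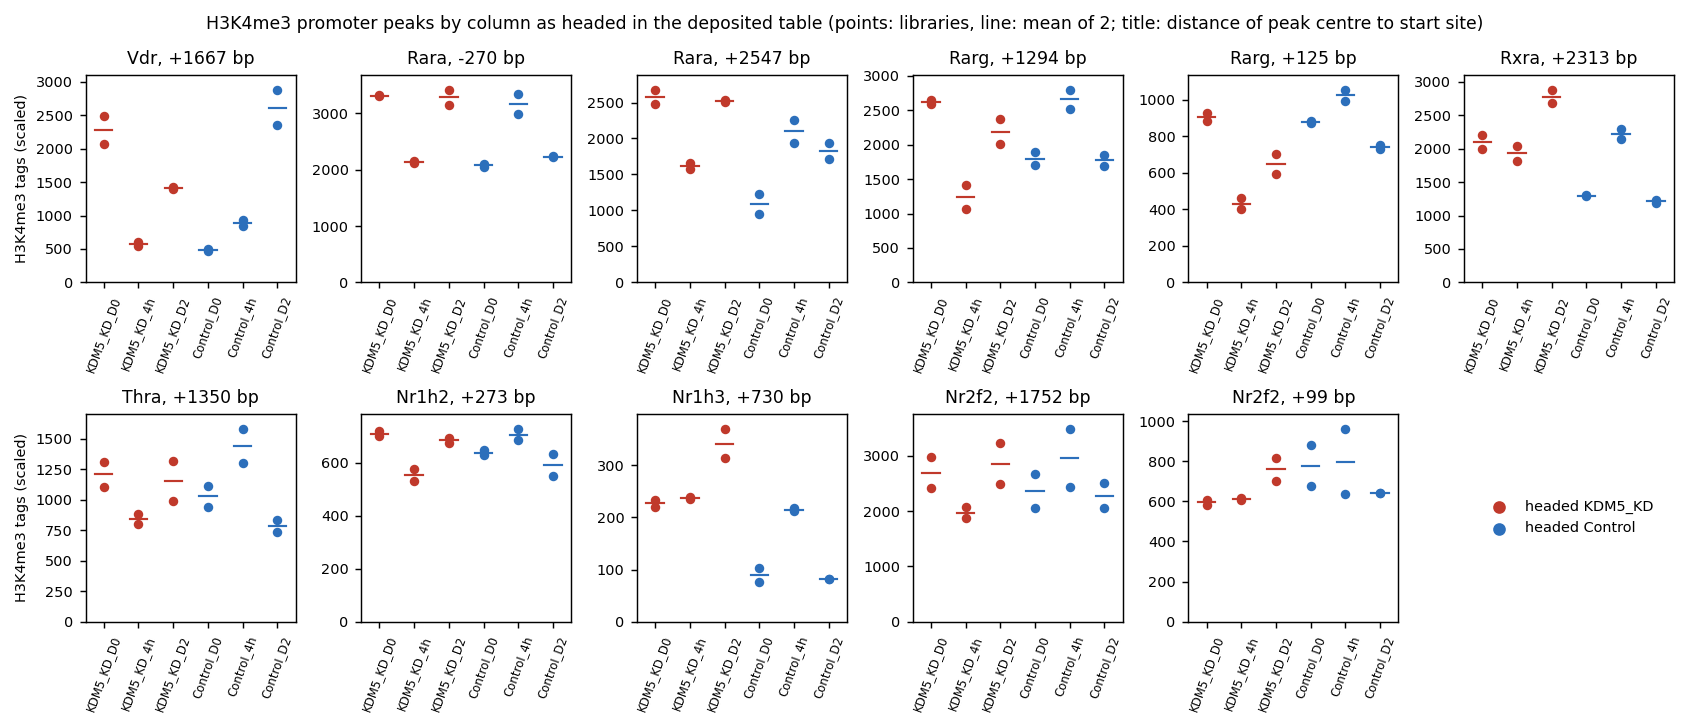
H3K4me3 tags (scaled to a common library total) in the 11 promoter peaks of 8 receptors, by column as headed in the deposited table. Points are libraries and lines the mean of 2. The Vdr peak is highest in the columns headed KDM5_KD_D0 and Control_D2, and the headings go against the RNA, so no time course should be read from the panels.

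As headed, limma called 6 of the 11 peaks for KDM5_KD against Control at D0 (all higher, where 32.9% of all promoter peaks were called and 32.7% were higher), 6 at 4h (all lower, where 35.9% were called and 34.3% were lower) and 6 at D2 (5 higher and 1 lower, where 24% were called, 23.8% higher and 0.243% lower). With the replicate block the count at 4h was 10 (58.2% of all). The median of all peaks itself differed by 0.29, -0.23 and 0.25 in these comparisons. After centring each library on its median, 5 were called higher at D0, 4 lower at 4h, and 2 higher and 2 lower at D2. No share of all peaks is given after centring, and the shares above do not carry over to it. The centred counts are therefore not read as a result about these genes. For Vdr the differences were 2.23 (SE 0.13, adjusted p = 3.20e-05), -0.61 (adjusted p = 0.00413) and -0.88 (adjusted p = 0.00182). For Nr1h3 they were 1.37 (SE 0.18, adjusted p = 9.71e-04), 0.14 (adjusted p = 0.613) and 2.04 (adjusted p = 1.94e-04). Between headed times, 7 peaks were lower at 4h than at D0 under KDM5_KD (36% of all called, 34.9% lower). At D2 limma called 0 (0.346% of all), with 4 peaks passing before adjustment and 5 with the block (17.5% of all). Under Control, 6 were higher at 4h (27.9% of all called, 27.8% higher) and 2 at D2 (1.97% of all called, 1.31% higher), the Vdr peak by 2.42 (SE 0.13, adjusted p = 5.85e-05) and the second Rara peak by 0.75 (SE 0.13, adjusted p = 0.0213).

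KDM5A occupied the start of most of these genes. Of 141 KDM5A peaks named for them, 9 were centred within 1000 bp of a start site (Rarg 2, and 1 each for Rara, Rxra, Rxrb, Thra, Nr1h2, Nr1h3 and Nr2f2), and 42 had a mean of at least 20 scaled tags. Rara (582 tags on average over the 6 libraries), Rxrb (531) and Nr1h2 (401) held the most and Nr1h3 (66.9) and Rxra (97.7) the least. These are totals over peaks of unlike width, so they do not rank tags per base. The Rara peak was 8111 bp wide, that of Rxrb 3201, of Nr1h2 2041, of Nr1h3 1332 and of Rxra 3113. All promoter-proximal KDM5A peaks had a median of 162, and 11.7 in the input. The input library held 54, 25.2, 20.7, 7.2 and 11.7 tags at the same 5 peaks. The Rxrb peak stood furthest above its input, at 21.1 times, and Thra (7.86 times) and Rxra (8.35 times) were nearest to it. Rarb had no peak near its start, and its single peak of at least 20 tags lay 20438 bp downstream of the start with 20.7 tags.

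Few KDM5A differences between times passed a test. Limma called 0 of 141 peaks at 4 hours against day 0 (0.0606% of all peaks called), with 9 of the 141 at an unadjusted p under 0.05 and 0 with edgeR (0.0857% of all) or with the replicate block (0.823% of all), and 0 on day 2 against day 0 (0.173% of all), with 24 at an unadjusted p under 0.05, 3 with edgeR (1.22% of all) and 3 with the block (0.96% of all). No share of all peaks is given at the unadjusted threshold, so the 9 and 24 are not read as a result about these genes. The median over all peaks differed by 0.18 and 0.37, and that over the 141 by 0.35 and 0.58. At the Rara start the 2 libraries held 736 and 312 tags on day 0, 553 and 462 at 4 hours, and 754 and 677 on day 2, and the replicates of day 0 lay further apart than the means of the times (524, 508 and 715). At the Nr2f2 start they held 204 and 113, 192 and 119, and 350 and 240, where both day 2 libraries lay above the rest, a day 2 difference of 0.93 (SE 0.66, adjusted p = 0.893). At the Nr1h3 start they held 75.1 and 36.9, 81.2 and 46.5, and 79.4 and 82. Among the 9 promoter peaks the differences lay between -0.26 and 0.93 on day 2 and between -0.23 and 0.29 at 4 hours.

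**Figure D4:**
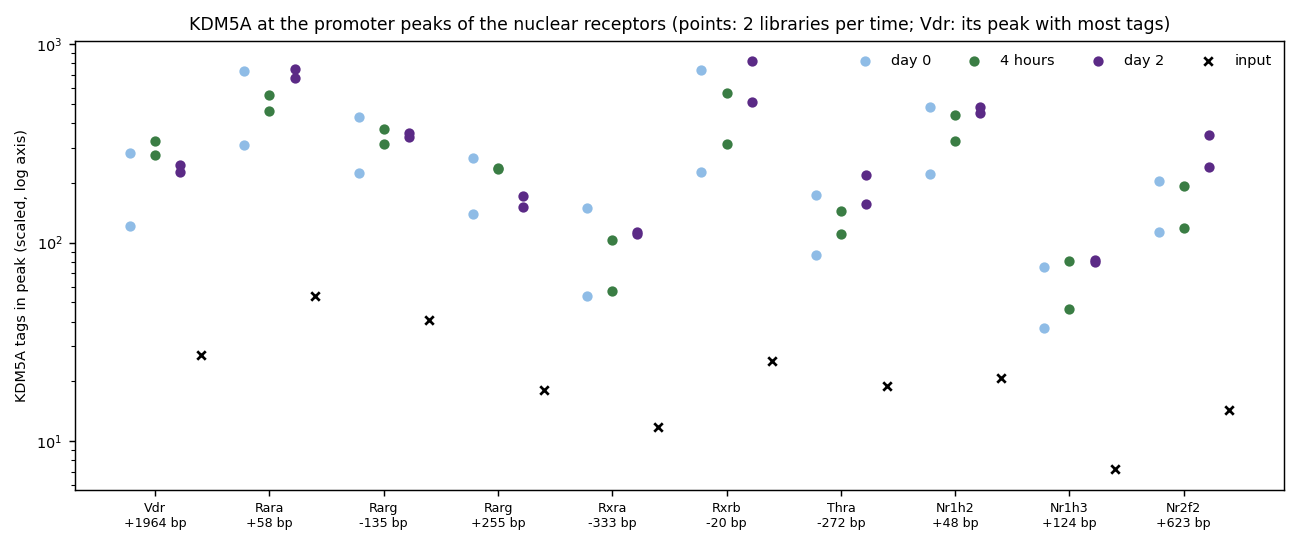
KDM5A tags (scaled, log axis) in the 9 peaks centred within 1000 bp of a start site and in the largest Vdr peak, with the distance of the centre from the start under each name. Points are the 2 libraries of day 0, 4 hours and day 2, and crosses the single input library. All KDM5A values lie above the input, and at the Rara start the replicates of day 0 lie at 736 and 312.

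No KDM5A peak of Vdr was centred within 1000 bp of its start. The largest of its 15 was centred 1964 bp downstream of the start, inside its H3K4me3 peak, and this KDM5A peak extended over the start. That peak (mm9 chr15:97734577-97738950) held 282 and 121 tags on day 0, 327 and 276 at 4 hours, and 227 and 247 on day 2, beside 27 in the input. The 4 hour difference was 0.7 (SE 0.7, adjusted p = 1). A peak at -6316 bp, upstream, held 65.3 and 38.6, 122 and 62, and 38.6 and 41.8 tags at the 3 times, with the highest mean at 4 hours (92.1, against 52 on day 0), a difference of 0.78 (SE 0.57, adjusted p = 1). Another, 28041 bp downstream of the start, held 15.6 and 6.82, 58.6 and 12.9, and 34 and 24.7. None of these differences passed in limma.

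**Figure D5:**
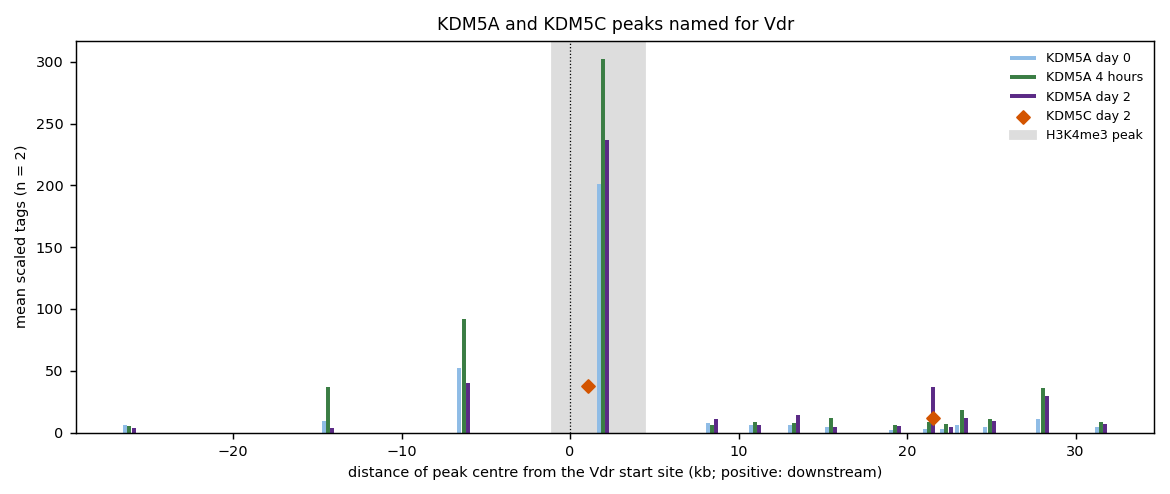
KDM5A and KDM5C peaks named for Vdr by the distance of their centre from the start site in kb, with the mean scaled tags of 2 libraries on the vertical axis. The shaded span is the H3K4me3 peak and the dotted line the start. The largest KDM5A peak, 1964 bp downstream of the start, lies within the H3K4me3 peak at all 3 times, and one of the 2 KDM5C peaks lies there too.

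Rxra carried the most KDM5A peaks, 48 of the 141, of which 14 were distal with at least 20 tags and most lay downstream of its start. A peak 73422 bp downstream of the start held 20.5 and 10.8 tags on day 0, 37.7 and 33.6 at 4 hours, and 59 and 73.4 on day 2. The day 2 libraries lay above all others and the difference was 2.07 (SE 0.58, adjusted p = 0.105). It passed when only peaks of at least 20 tags were tested (adjusted p = 0.0443) and with edgeR on whole reads recovered from the steps of the values (1.72, adjusted p = 0.0361). In the opposite direction, a peak 98089 bp downstream of the start held 117 and 44.9, 130 and 101, and 43.1 and 42.5, a difference of -0.75 in limma (SE 0.57, adjusted p = 0.9) and -1.22 in edgeR (adjusted p = 0.0465). Rara followed with 8 distal peaks of at least 20 tags, the largest 1854 bp from a start with 402 and 195 tags on day 0, 377 and 271 at 4 hours, and 520 and 407 on day 2.

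KDM5C, measured on day 2 alone, was sparse at these genes. Of 29 peaks, 20 overlapped a KDM5A peak, 10 had a mean of at least 20 tags and 1 was centred within 1000 bp of a start, that of Rarg at 486 bp (27.1 and 13.5 tags, 1.8 in the input). The median of all KDM5C peaks was 12.2 tags. Rxra held 12 of the 29 and Nr2f2 held 6, while Rxrb, Nr1h2 and Nr1h3 had none. The largest lay upstream of a Rara start, at -8744 bp, with 84.8 and 32 tags and 3.6 in the input, over a KDM5A peak with a day 2 mean of 185. At Vdr a peak 1068 bp downstream of the start held 61.1 and 14.8 tags, where KDM5A averaged 237 on day 2. Replicate 1 held more tags than replicate 2 at each KDM5C peak given here.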

How the data were processed

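RNA, H3K4me3, KDM5A and KDM5C were measured in 3T3-L1 cells. The RNA table holds log2 values that the authors deposited as normalised tags per kb, and the ChIP tables hold a signal that the authors deposited per peak, tags scaled to a common library total, per the file headers. The submitters' processing notes name Bowtie2 0.12.8, Subread, DESeq2, STAR, HOMER and build mm9, without saying which step used which for every file. Symbols came from RefSeq for 17253 of 17515 RNA rows, from the peak tables for 144, and 118 kept their ID.

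RNA rows with a log2 value of at least 1 in 2 or more libraries were tested. ChIP signal was tested as log2(tags + 1), so fold changes of low peaks are understated. One limma fit per assay (limma 3.58.1, R 4.3.3, trend) covered all its groups, with Benjamini-Hochberg adjustment over all features and a threshold of 0.05. Limma shares spread over features, with a median of 4.07 prior degrees of freedom in RNA and 3.74 in H3K4me3, beside 6 residual ones. For KDM5A the prior was infinite. Each KDM5A SE in that fit therefore came from the trend over all peaks and not from the libraries of its own peak. Scripts ran in Python 3.11.15 and were tested on simulated data. KDM5A was also tested with edgeR 4.0.16 on counts recovered from the steps of the values (100% of low values were whole within 0.1 of a step). Replicate numbers come from the experiment numbers in the titles. Deviations of same-numbered libraries correlated at 0.381 to 0.657 in RNA and 0.504 to 0.79 in H3K4me3 (15 pairs of groups each), so the numbers pair the libraries in these assays.

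Named list genes are up to 2 called genes with the smallest p per list and comparison, named peaks those centred within 1000 bp of a start or with at least 20 tags, and likeness is the 5 highest Pearson correlations. One gene that this rule names is not reported here. The members and lists were chosen with earlier results of these data known. Counts at an unadjusted p are given without a share of all features. Alternatives were other filters, a pseudocount of 8, the replicate block, no trend, median centring, only the compared groups and leaving out each library. A sample labelled as virus input has no column and was not analysed here.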

Additional observations from a re-analysis of the deposited data

Results flagged for a closer look

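The H3K4me3 peak at the Vdr promoter was picked out by an interaction in the limma fit with an adjusted p under 0.05. The interaction asks whether the difference between columns headed KDM5_KD and Control itself differed between D2 and D0. That difference was opposite in sign at D2 and at D0. It was -0.88 on the log2 scale at D2 (1397 and 1425 tags in KDM5_KD_D2, against 2881 and 2351 in Control_D2) and 2.23 at D0 (2498 and 2077 tags in KDM5_KD_D0, against 466 and 503 in Control_D0). The interaction was -3.11 (SE 0.18, adjusted p = 1.45e-04 in limma). This peak was the only one of 11 receptor peaks called, where limma called 0.766% of all promoter peaks. The same call picked the peak out, so its p is no separate support. The interaction lay between -3.26 and -2.97 when 1 library was left out. The headings of this table go against the RNA, so the sign is a statement about the columns as headed, not about knockdown or time.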

How the results depend on the processing

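Of the receptor counts in RNA, 52 held within 1.5 times of the main count and 12 did not, against 74 and 10 in H3K4me3 and 15 and 7 in KDM5A, and none of the single receptors (RNA) and H3K4me3 peaks followed through the alternatives changed sign. The balance of receptors called for day 2 against day 0 in shLuc cells, 4 higher and 3 lower, was 3 and 4 with no trend and 2 and 3 without day 2 replicate 1. With the replicate block, the RNA knockdown counts were 1 on day 0, 3 at 4 hours and 3 on day 2, and that of the interaction was 2. The H3K4me3 counts with the block were 10 for KDM5_KD against Control at 4h, 5 for D2 against D0 under KDM5_KD and 4 for the interaction, and the KDM5A day 2 count was 3. Whether the KDM5A numbers pair the libraries is not settled (correlations of 0.073 to 0.53 over 3 pairs). Beyond the calls given in the text, the block moved no other count of receptors called by over 1.5 times. The RNA knockdown count on day 2 was 2 with a stricter filter and 0 with only the compared groups, where Vdr had an adjusted p of 0.0812 in limma. With only the compared groups, H3K4me3 gave 2 (4h against D0, Control), 1 (D2 against D0, Control) and 1 (D2 against D0, KDM5_KD), and KDM5A gave 1 on day 2. The KDM5A day 2 count was 1 with the 20-tag filter, 2 with median centring and 3 with edgeR. Median centring turned the KDM5A calls over all peaks from 53 higher and 0 lower to 230 and 30 at 4 hours, and from 119 and 32 to 301 and 370 on day 2. Without KDM5A 4 hours replicate 1 the 4 hour calls over all peaks were 6 higher and 48 lower, and without replicate 2 they were 0, so single libraries decide that direction. Leaving out each library gave 0 to 2 receptors for the RNA knockdown on day 2 (2 without shLuc replicate 1, 0 without shLuc replicate 2 or shKdm5ABC replicate 1), 5 to 6 for day 2 against day 0 in shKdm5ABC cells and 5 to 7 in shLuc cells. It gave 1 to 2 H3K4me3 peaks for D2 against D0 under Control, 1 to 2 for the interaction and 0 to 1 KDM5A peaks on day 2 (1 without day 0 replicate 1 or day 2 replicate 2). edgeR was not run on H3K4me3. RNA depth is unknown, and 2 libraries per group limit every test.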
